A study of Mus musculus with 12 samples.

Results

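The genes described here are 10 members of the oxidative stress response governed by the transcription factor NRF2: Hmox1, Nfe2l2, Keap1, Bach1, Maff, Mafg, Nqo1, Srxn1, Txnrd1 and Sqstm1. They were taken by symbol, as the single gene that the platform annotation gives for a probe set, and make up 10 of the 18193 genes named on the array. The 10 symbols were selected on measured differences between berberine and DMSO on these same arrays, among them those of Hmox1 and of oxidative stress genes, so their levels and differences are given as a description, with no test.

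The arrays measured RNA of 3T3-L1 adipocytes, fat cells differentiated in culture from a mouse fibroblast line. Cells were used at days 8 to 10 after differentiation, which was induced for 48 h with insulin, dexamethasone and IBMX. Before treatment, every group spent 12 h in serum-free medium with 0.2% bovine serum albumin. There were 4 groups of 3 arrays each: the solvent DMSO, and 5 µM berberine, a plant alkaloid, for 3 h, 6 h or 12 h. The labels do not give the duration of the DMSO incubation, so all comparisons with DMSO share its 3 arrays, and berberine and time in culture cannot be told apart in those comparisons. Nothing in the labels says that the arrays of a group came from separate cultures, so the spread and every p-value reflect differences between these samples, which may be technical. This is 1 cell line differentiated in vitro, with no adipose tissue in the series.

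NRF2, encoded by Nfe2l2, is held in the cytoplasm by KEAP1, which presents it to a CUL3 ubiquitin ligase for destruction. When oxidants or electrophiles modify cysteines of KEAP1, NRF2 escapes, enters the nucleus and pairs with a small MAF protein such as MAFF or MAFG on antioxidant response elements, DNA sites that BACH1 can occupy as a repressor. Classical targets are heme oxygenase 1 (Hmox1), the quinone reductase NQO1, sulfiredoxin (Srxn1) and thioredoxin reductase (Txnrd1), and the autophagy adaptor p62 (Sqstm1), itself a target, can bind KEAP1 and take it to autophagosomes.

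Promoter sequences from RefSeq (GRCm38.p6) were searched for 9 of the 10 genes, all but Hmox1, as 13 windows of 250 bases before a transcript start. The search covered both strands and looked for the antioxidant response element core TGANNNNGC, its narrower form TGACNNNGC and the AP-1-like or MAF-recognised heptamer TGANTCA, which can overlap the core. Windows of 4 genes are shown, those of Srxn1, Nfe2l2 and Maff as examples that hold matches, and that of Nqo1 as an example that holds none. Capitals mark TGANNNNGC on either strand, and each sequence runs 5′ to 3′ on the gene's strand up to the base before the start. The Srxn1 window is chr2:152105274-152105523 on the plus strand, that of Nfe2l2 chr2:75704664-75704913 on the minus strand, the first of the 3 Maff windows chr15:79346371-79346620 on the plus strand and that of Nqo1 chr8:107403206-107403455 on the minus strand.
Srxn1: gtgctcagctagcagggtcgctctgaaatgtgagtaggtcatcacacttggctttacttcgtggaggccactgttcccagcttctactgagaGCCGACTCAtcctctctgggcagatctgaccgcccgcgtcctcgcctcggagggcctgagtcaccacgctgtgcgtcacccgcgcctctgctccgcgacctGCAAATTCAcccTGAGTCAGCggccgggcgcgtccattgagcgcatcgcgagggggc
Nfe2l2: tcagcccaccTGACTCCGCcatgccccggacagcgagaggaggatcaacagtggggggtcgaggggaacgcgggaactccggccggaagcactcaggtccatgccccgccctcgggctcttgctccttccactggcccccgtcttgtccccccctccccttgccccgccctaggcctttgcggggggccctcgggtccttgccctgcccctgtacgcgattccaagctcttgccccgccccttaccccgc
Maff: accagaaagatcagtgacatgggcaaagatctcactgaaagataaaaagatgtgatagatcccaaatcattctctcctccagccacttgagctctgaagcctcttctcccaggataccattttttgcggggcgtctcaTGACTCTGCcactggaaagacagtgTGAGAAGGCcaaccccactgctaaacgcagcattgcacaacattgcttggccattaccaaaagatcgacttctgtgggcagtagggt
Nqo1: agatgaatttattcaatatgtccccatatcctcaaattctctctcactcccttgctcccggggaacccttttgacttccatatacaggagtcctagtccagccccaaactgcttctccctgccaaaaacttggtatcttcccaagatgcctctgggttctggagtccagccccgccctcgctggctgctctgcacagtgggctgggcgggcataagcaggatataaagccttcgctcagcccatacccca

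Srxn1 held 3 matches to TGANNNNGC, and the one whose first base lies at -45 from the start (TGAGTCAGC) also contains TGANTCA, so that these matches share bases. A further TGANTCA of Srxn1 lies at -102. Nfe2l2 had 1 match, at -240 (TGACTCCGC), and the Maff window shown had matches at -112 (TGACTCTGC) and -87 (TGAGAAGGC), while the other 2 Maff windows had none. Matches were also present in Mafg (-222, TGACCGTGC, and -61, TGAAGCGGC), in Keap1 (-61, TGAACCTGC) and in 2 of the 3 Txnrd1 windows (TGACAAAGC and TGAAACCGC). No TGANNNNGC was present in the windows of Nqo1, Bach1 and Sqstm1. Matches occurred in genes above DMSO at 12 h (Srxn1, Nfe2l2, Maff and Mafg) and in genes that overlapped it (Keap1 and Txnrd1). They were missing in genes above it (Bach1 and Sqstm1) and in Nqo1, which overlapped it. A relation between matches and levels was not tested. Over the 9 genes searched, 7 windows of 6 genes held TGANNNNGC, a motif found in 35.2% of all 32851 promoter windows of that length. TGACNNNGC was present in 4 windows, against 10.2% of all windows, and TGANTCA in 1, against 6.75%. These matches describe the letters of the windows and do not show that a factor binds there.

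Levels are given as the deposited log2 signal, on which a difference of 1 is a 2-fold change, and values of different genes are not compared because each probe set has its own brightness. Differences carry limma's standard error (SE) from a fit of all 12 arrays, and a gene counts as called at a Benjamini-Hochberg adjusted p under 0.05 over the 12136 genes that passed the filter on low signal. All 10 genes passed that filter.

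At 12 h, Hmox1 stood out in size from the rest of the 10, at 5.24 times its DMSO level, followed by Sqstm1 at 1.94 times. Nfe2l2, Bach1 and Mafg were between 1.47 and 1.50 times their DMSO level, Maff and Srxn1 were both at 1.34 times, and Keap1, Nqo1 and Txnrd1 overlapped DMSO. Hmox1, Nfe2l2, Mafg and Sqstm1 were above DMSO on every array at 3 h and 6 h, where 10.5% and 15.7% of all genes tested were. Maff was below DMSO on every array at 3 h and 6 h, and Srxn1 at 6 h, where 8.56% and 14.3% of all genes were. At 12 h, 7 of the 10 genes were above on every array and 0 below, beside 19.1% and 20.3% of all genes.

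**Figure D1:**
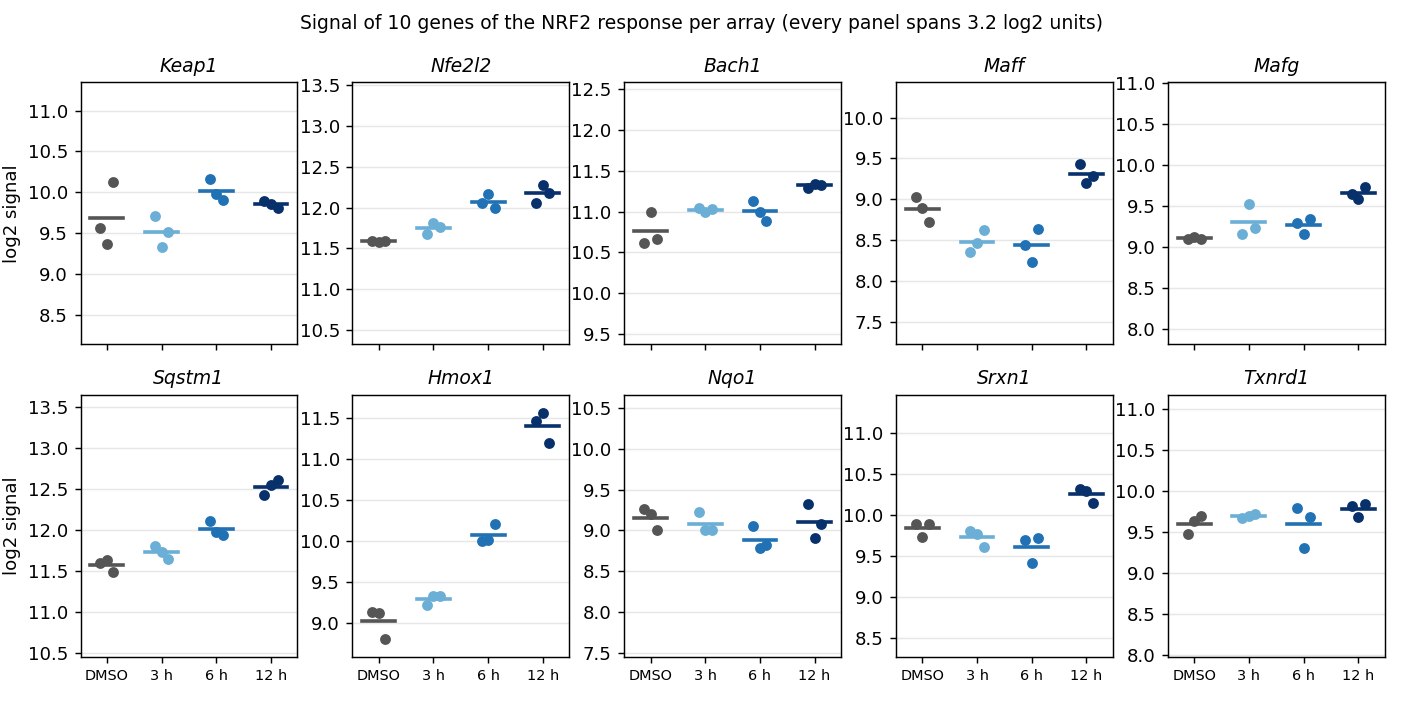
The log2 signal of each gene (vertical axis, 3.2 log2 units in each panel) is plotted for the 3 arrays of DMSO and of berberine at 3 h, 6 h and 12 h (horizontal axis), with a bar at the group mean. Hmox1 and Sqstm1 climb at each time, Maff and Srxn1 are highest at 12 h and are below DMSO at 6 h, and the arrays of Nqo1 and Txnrd1 overlap between DMSO and every berberine time.

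Among the regulators, Nfe2l2, the gene of NRF2, had signals of 11.59, 11.58 and 11.59 on the DMSO arrays, the tightest group of any of the 10 genes. It measured 11.67, 11.81 and 11.76 at 3 h, 12.05, 12.17 and 11.99 at 6 h, and 12.06, 12.28 and 12.18 at 12 h. All 9 berberine arrays lay above all DMSO arrays, with differences of 0.16, 0.49 and 0.59 (SE 0.07 each) at 3 h, 6 h and 12 h. Most of the difference was in place by 6 h: the step from 3 h to 6 h was 0.32, with no overlap, and that from 6 h to 12 h was 0.10, with overlapping arrays. A dimmer probe set of Nfe2l2 differed by 0.31, 0.06 and 0.25, each with an SE of 0.26.

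Keap1, the adaptor that marks NRF2 for destruction, measured 9.56, 9.37 and 10.13 on the DMSO arrays, so that the third array alone set a wide control range. Its berberine arrays read 9.71, 9.33 and 9.51 at 3 h, 10.16, 9.98 and 9.91 at 6 h, and 9.89, 9.86 and 9.81 at 12 h. Every berberine time overlapped DMSO, with differences of -0.17, 0.33 and 0.17 (SE 0.15 each). Without DMSO replicate 3 the differences at 6 h and 12 h were 0.55 and 0.39 and were called. The second, dimmer Keap1 probe set gave 0.55, -0.11 and -0.37 (SE 0.37), opposite in sign to the first at each time.

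Bach1, the repressor that competes for the same DNA elements, read 10.62, 11.00 and 10.67 on DMSO and 11.29, 11.34 and 11.33 at 12 h. The 12 h arrays were above DMSO and above 6 h, where Bach1 measured 11.13, 10.99 and 10.89. At 3 h its arrays, at 11.04, 10.99 and 11.03, still overlapped DMSO through the second DMSO array. The differences were 0.25, 0.24 and 0.55 (SE 0.09), and a second probe set gave 0.17, 0.43 and 0.67 (SE 0.17). Without DMSO replicate 2, Bach1 was called at 3 h and 6 h as well, at 0.37 and 0.36.

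Maff and Mafg encode the small MAF partners, which have no activation domain of their own and bind DNA with NRF2, with BACH1 or with each other. Maff measured 9.03, 8.90 and 8.72 on DMSO, 8.36, 8.46 and 8.63 at 3 h, 8.44, 8.23 and 8.64 at 6 h, and 9.43, 9.20 and 9.29 at 12 h. The 6 arrays of 3 h and 6 h lay below every DMSO array and the 3 of 12 h lay above. Arrays on opposite sides of DMSO were found in 0.634% of all genes between 3 h and 12 h, in 0.313% between 6 h and 12 h and in 0.157% between 3 h and 6 h. The differences were -0.40, -0.44 and 0.42 (SE 0.13), that is 1.32 times lower, 1.36 times lower and 1.34 times higher than DMSO, and the step from 6 h to 12 h was 0.87. The Maff calls were among the less stable ones: that at 6 h ended when DMSO replicate 1 or 2 or 6 h replicate 1 or 2 was left out, and that at 12 h without DMSO replicate 3 or 12 h replicate 1.

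Mafg read 9.10, 9.12 and 9.09 on DMSO and 9.65, 9.59 and 9.73 at 12 h. It measured 9.15, 9.52 and 9.23 at 3 h and 9.29, 9.15 and 9.34 at 6 h, so all berberine arrays were above DMSO by a small margin until 12 h. The differences were 0.20, 0.16 and 0.55 (SE 0.10). A dimmer Mafg probe set did not follow this course, with 0.05, -0.32 and 0.04 (SE 0.23), and the mean of both probe sets was 0.30 at 12 h and was not called.

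Sqstm1, the gene of p62, measured 11.60, 11.63 and 11.49 on DMSO, 11.81, 11.73 and 11.65 at 3 h, 12.11, 11.98 and 11.94 at 6 h, and 12.43, 12.55 and 12.61 at 12 h. No 2 groups overlapped, and the order DMSO, 3 h, 6 h, 12 h held for every array. The differences from DMSO were 0.16, 0.44 and 0.95 (SE 0.07), with steps of 0.28 from 3 h to 6 h and 0.52 from 6 h to 12 h. A second probe set, at or above the detection threshold on 4 arrays, gave 1.12, 1.66 and 2.22 with an SE of 0.69, and is too dim to set a size.

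Of the target genes, Hmox1, whose enzyme splits heme into biliverdin, iron and carbon monoxide, had signals of 9.13, 9.12 and 8.80 on DMSO. It read 9.21, 9.32 and 9.33 at 3 h, 10.00, 10.01 and 10.21 at 6 h, and 11.46, 11.56 and 11.20 at 12 h. As with Sqstm1, all 4 groups were separate and in order of time. The differences from DMSO were 0.27, 1.06 and 2.39 (SE 0.11), or 1.21, 2.08 and 5.24 times, with steps of 0.79 from 3 h to 6 h and 1.33 from 6 h to 12 h. In the order from the largest increase to the largest decrease, Hmox1 was number 1536 of the 12136 genes at 3 h, number 198 at 6 h and number 9 at 12 h. It has 1 probe set.

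Srxn1, which restores overoxidised peroxiredoxins, measured 9.89, 9.73 and 9.89 on DMSO, 9.80, 9.77 and 9.61 at 3 h, 9.69, 9.41 and 9.72 at 6 h, and 10.32, 10.29 and 10.15 at 12 h. The 6 h arrays were just below DMSO and the 12 h arrays above it. The differences were -0.11, -0.23 and 0.42 (SE 0.10), with a step of 0.65, or 1.57 times, between 6 h and 12 h. Of its other 3 probe sets, 2 gave 0.34 (SE 0.19) and 0.55 (SE 0.28) at 12 h, and the dimmest gave -0.15 with an SE of 0.70. The mean over its probe sets was 0.29 at 12 h and was not called.

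Nqo1, the quinone reductase often used as a readout of NRF2, was not higher than DMSO at any time. It measured 9.26, 9.20 and 9.00 on DMSO, 9.23, 9.01 and 9.01 at 3 h, 9.05, 8.79 and 8.82 at 6 h, and 9.32, 8.91 and 9.08 at 12 h. The differences were -0.07, -0.27 and -0.05 (SE 0.12), and all groups overlapped DMSO. Txnrd1, which keeps thioredoxin reduced, read 9.48, 9.63 and 9.70 on DMSO, 9.67, 9.70 and 9.72 at 3 h, 9.79, 9.31 and 9.69 at 6 h and 9.82, 9.68 and 9.84 at 12 h. Its differences of 0.09, -0.01 and 0.18 (SE 0.11) came with overlapping arrays at each time. A p-value that misses the threshold, or an overlap, does not show that Nqo1 and Txnrd1 kept the same level.

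**Figure D2:**
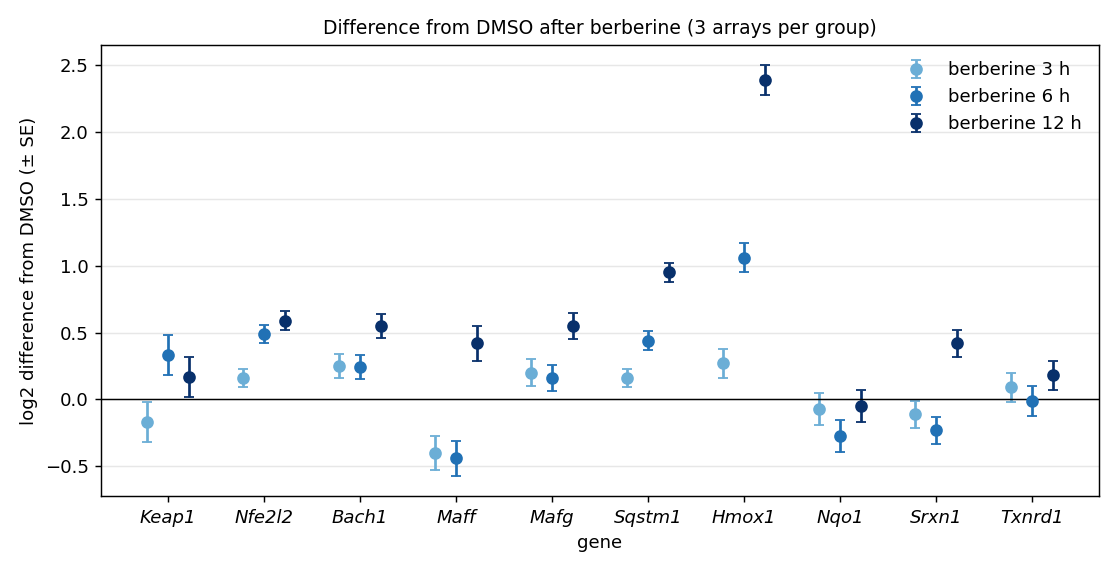
The log2 difference from DMSO (vertical axis) is plotted for the 10 genes at 3 h, 6 h and 12 h of berberine, with bars of 1 SE and 3 arrays per group. Hmox1 reaches 2.39 at 12 h and Sqstm1 0.95, while Maff goes from -0.44 at 6 h to 0.42 at 12 h and Nqo1 stays between -0.27 and -0.05.

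Counted by the limma calls, none of the 10 genes was called at 3 h, where 1.09% of all genes tested were called higher and 0.816% lower. At an unadjusted p under 0.05 the count at 3 h was 4 higher (Hmox1, Nfe2l2, Bach1 and Sqstm1) and 1 lower (Maff). At 6 h, 3 were called higher (Hmox1, Nfe2l2 and Sqstm1) and 1 lower (Maff), against 7.24% and 6.98% of all genes. At 12 h, 7 were called higher and 0 lower, against 13.7% and 14.6% of all genes, and the 0 lower was also 0 at an unadjusted p under 0.05. The 7 were Hmox1, Nfe2l2, Bach1, Maff, Mafg, Srxn1 and Sqstm1. Since these contrasts were known when the genes were chosen, nothing is read from the counts. The median difference of the 10 genes was 0.13, 0.20 and 0.49 at the 3 times, beside 0.02, 0.01 and -0.01 over all genes tested.

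Between berberine times, 3 genes were called higher at 6 h than at 3 h (Hmox1, Nfe2l2 and Sqstm1) and 0 lower, with 1.19% and 1.15% of all genes called higher and lower. From 6 h to 12 h, 6 were called higher (Hmox1, Bach1, Maff, Mafg, Srxn1 and Sqstm1) and 0 lower, with 2.5% and 3.18% of all genes called. From 3 h to 12 h, 7 were called higher and 0 lower, with 8.01% and 9.71% of all genes called. At an unadjusted p under 0.05, too, 0 were lower in any of these comparisons. With 1 array left out these counts ranged from 1 to 4, from 4 to 6 and from 5 to 8. The berberine arrays entered the choice of the 10 genes, so nothing is read from these counts either. In the probe sets used, Nfe2l2 took its largest step between 3 h and 6 h. Bach1, Maff, Mafg and Srxn1 took theirs in the longer interval from 6 h to 12 h, with steps of 0.32, 0.87, 0.40 and 0.65. A second probe set stepped by 0.26 and then 0.24 for Bach1, by -0.24 and then 0.19 for Nfe2l2 and by -0.37 and then 0.37 for Mafg. The Nfe2l2 call from 3 h to 6 h ended without 3 h replicate 1 or 3 or 6 h replicate 2. The Sqstm1 call there ended on leaving out any 3 h or 6 h array, DMSO replicate 1 or 12 h replicate 2. From 6 h to 12 h, the Bach1 call ended on leaving out any 3 h or 12 h array or 6 h replicate 2 or 3. The Mafg call there ended on leaving out any 12 h array or 6 h replicate 1 or 2.

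**Figure D3:**
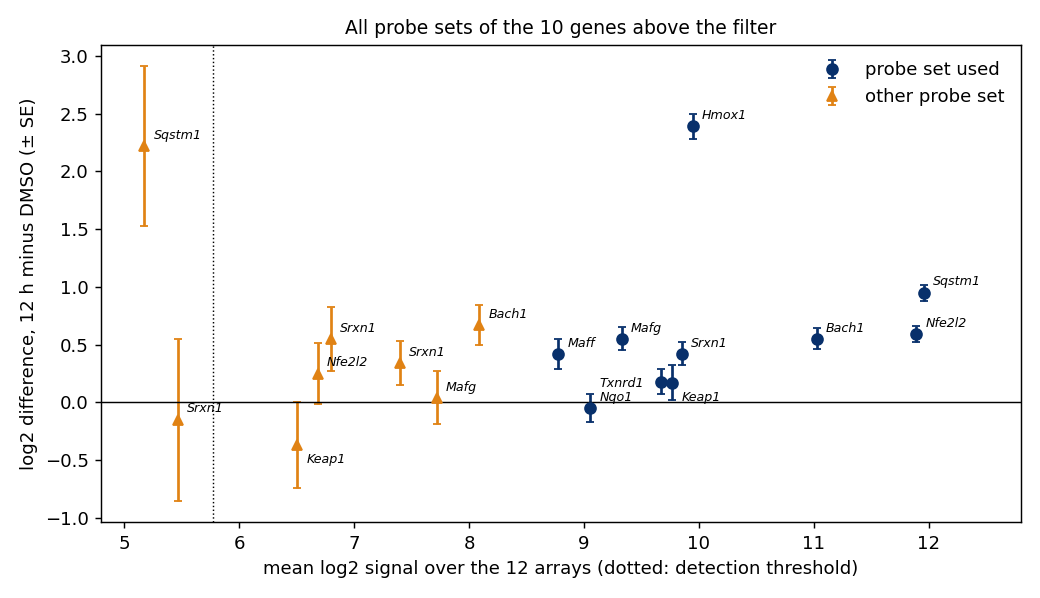
Each of the 18 probe sets of the 10 genes that passed the filter is plotted by its mean log2 signal over the 12 arrays (horizontal axis) and its log2 difference between 12 h of berberine and DMSO (vertical axis, with bars of 1 SE); circles are the probe sets used and triangles the others. The others are dimmer and have wider bars, and those of Keap1 and of the dimmest Srxn1 probe set lie below 0.

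The 10 genes have 20 probe sets in all, of which 18 passed the filter; 3 genes have 1 probe set and 7 have several. Both that did not pass belong to Txnrd1. Across the 12 arrays the levels of Hmox1 followed those of Sqstm1 (Pearson r 0.97), Nfe2l2 (0.88), Mafg (0.84) and Bach1 (0.82) more closely than those of Keap1 (0.34), Txnrd1 (0.35) or Nqo1 (-0.10). Maff and Srxn1, both highest at 12 h, had an r of 0.88. These values describe 12 arrays in 4 groups, which share the group differences, and carry no test. Among the genes tested, leaving out RIKEN, predicted and clone-type symbols, the 5 with a course most like that of Hmox1 were Smad4 (r 0.993), Cpsf6 (0.982), Steap1 (0.980), Slc25a33 (0.979) and Ptpn12 (0.976). Their differences at 12 h were smaller, at 0.36, 0.79, 0.87, 0.95 and 0.75.

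The wider pathway was followed with 5 lists that leave out the 10 genes, and whose members were tested with limma. Of 29 other NRF2 targets, 25 were tested. None was called at 3 h (1 higher and 2 lower at an unadjusted p under 0.05), 2 were called higher and 3 lower at 6 h, and 7 higher and 1 lower at 12 h. The shares over all genes tested were 7.24% higher and 6.98% lower at 6 h and 13.7% and 14.6% at 12 h. Leaving out 12 h replicate 2 or 1 brought the 8 calls at 12 h to 4 or 5, and leaving out 6 h replicate 2 or DMSO replicate 1 or 3 brought the 5 at 6 h to 2, 3 and 3. After quantile normalization these counts were 1 and 3 at 6 h and 6 and 3 at 12 h. The list medians were -0.01, -0.02 and 0.02, beside 0.02, 0.01 and -0.01 over all genes. Slc7a11, the cystine carrier that feeds glutathione synthesis, had the largest change: it read 5.92, 5.35 and 5.49 on DMSO, 5.87, 6.39 and 5.74 at 3 h, 7.46, 7.14 and 7.76 at 6 h and 7.60, 8.23 and 7.77 at 12 h. As its DMSO mean was under the detection threshold of 5.77, its rise is given as a bound, at least 3.10-fold at 6 h (limma adjusted p = 0.000301) and at least 4.13-fold at 12 h (adjusted p = 1.14e-05). It lies outside the rule for named genes and was named after its value was seen.

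Gclm, the modifier subunit of glutamate-cysteine ligase, rose by 12 h to 1.44 times its DMSO level (0.53, SE 0.07, limma adjusted p = 2.13e-05), with signals of 10.94 to 11.02 on DMSO and 11.39 to 11.59 at 12 h. Another Gclm probe set differed by 0.12 (SE 0.13). Its catalytic partner Gclc differed by 0.19 (SE 0.17, limma adjusted p = 0.471). Abcc4, a transporter of conjugates, shared the course of Maff: it fell to -0.44 (SE 0.12) at 6 h and rose to 0.47 at 12 h (limma adjusted p = 0.0183 and 0.00549). Its call at 6 h ended without DMSO replicate 1 (adjusted p = 0.09), without DMSO replicate 3 (0.0734) and without 6 h replicate 2 (0.101). Aox1, an aldehyde oxidase, fell by 0.41 at 6 h (SE 0.10, limma adjusted p = 0.0139) and by 0.47 at 12 h (adjusted p = 0.00265). The 6 h call of Aox1 was lost without DMSO replicate 3 (0.0769), 6 h replicate 2 (0.0751) or 6 h replicate 3 (0.0524). Fth1, the ferritin heavy chain, rose by 0.33 at 6 h (SE 0.07, limma adjusted p = 0.00582), but not after quantile normalization (adjusted p = 0.572). Gsta3, a glutathione transferase, rose by 0.54 at 12 h (SE 0.17, limma adjusted p = 0.0215), a call lost without DMSO replicate 3 (0.0853), 12 h replicate 1 (0.0502) or 12 h replicate 2 (0.134). Glutathione reductase (Gsr) differed by -0.03 (SE 0.13) and thioredoxin (Txn1) by -0.11 (SE 0.06) at 12 h, with limma adjusted p = 0.883 and 0.177.

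Among 14 tested of 16 further regulators of NRF2, 1 was called higher and 0 lower at 3 h (1 lower at an unadjusted p under 0.05), 2 higher and 1 lower at 6 h and 3 higher and 1 lower at 12 h, with medians of 0.02, 0.01 and 0.20. Of all genes tested, 1.09% were called higher and 0.816% lower at 3 h. These shares were 7.24% and 6.98% at 6 h and 13.7% and 14.6% at 12 h. The medians over all genes were 0.02, 0.01 and -0.01. With a pseudocount of 50 on the linear signal the counts of regulators were 1 and 1 at 3 h and 3 and 2 at 12 h. Nfe2l1, which encodes the NRF2-related factor NRF1, rose at each time, by 0.30, 0.52 and 0.85 (SE 0.07; limma adjusted p = 0.0398, 0.000118 and 1.42e-07), to 1.80 times DMSO at 12 h. Its call at 3 h was lost under 12 settings, among them leaving out DMSO replicate 1 or 2 (adjusted p = 0.0637 and 0.123), any 3 h array (0.103 to 0.139), 12 h replicate 1 or 2 (0.054 and 0.0552) or 6 h replicate 3 (0.0519). Sesn2, a sestrin that can bind KEAP1 and p62, rose to 1.98 times at 6 h (0.99, SE 0.25, limma adjusted p = 0.0127) and differed by 0.20 at 12 h (adjusted p = 0.614). Its 6 h call ended without DMSO replicate 2 (0.0563) or 6 h replicate 3 (0.0729). Syvn1, a ubiquitin ligase of the endoplasmic reticulum that can target NRF2, fell by 0.62 at 6 h and by 0.55 at 12 h (SE 0.08; limma adjusted p = 4.94e-05 and 4.69e-05). Pgam5, a mitochondrial phosphatase that binds KEAP1, rose by 0.28 at 12 h (limma adjusted p = 0.00426).

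Of the listed genes of heme and iron handling, which surround the Hmox1 reaction, 17 of 18 were tested. None was called at 3 h (0 higher and 3 lower at an unadjusted p under 0.05). At 6 h 4 were called lower and at 12 h 6, beside 6.98% and 14.6% of all genes. At either time 0 were called higher (0 and 1 at an unadjusted p under 0.05), beside 7.24% and 13.7% of all genes. The other 11 were not called at 12 h. The heme and iron genes Fth1 and Blvrb, a biliverdin reductase, stand on the list of NRF2 targets and were called higher at 12 h, both by 0.21 (limma adjusted p = 0.0403 and 0.0185). The Fth1 call was lost under 12 settings, with a difference of -0.02 after quantile normalization, and a second Fth1 probe set differed by 0.39 (SE 0.09). The Blvrb call ended without DMSO replicate 3 or 12 h replicate 1 or 2. The medians of the 17 tested heme and iron genes were -0.05, -0.16 and -0.12. Tfrc, the transferrin receptor, fell by 0.38 at 6 h and 0.54 at 12 h (SE 0.08; limma adjusted p = 0.00412 and 6.71e-05), while a second probe set of it differed by -0.29 and -0.11 (SE 0.17). Alas1, the first enzyme of heme synthesis, fell by 0.46 at 12 h (SE 0.07, limma adjusted p = 8.13e-05), and so did Uros, a later enzyme (SE 0.08, adjusted p = 0.0004). Averaging a gene's probe sets ended both calls, with differences of -0.30 (adjusted p = 0.112) for Alas1 and -0.75 (adjusted p = 0.102) for Uros. Flvcr1, a heme exporter, fell by 0.68 at 6 h (SE 0.11, limma adjusted p = 0.000561) and differed by -0.21 at 12 h. Slc40a1, the iron exporter ferroportin, fell by 0.45 at 6 h (SE 0.11, limma adjusted p = 0.00841), a call lost without DMSO replicate 1 (0.0531) and with the mean of its probe sets (0.428). Hmox2, the constitutive heme oxygenase, differed by -0.11 at 12 h (SE 0.06, limma adjusted p = 0.205).

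Of 23 tested of 26 other antioxidant enzymes, none was called at 3 h (1 higher and 2 lower at an unadjusted p under 0.05), 2 higher and 3 lower at 6 h, and 1 higher and 6 lower at 12 h, with medians of -0.05, -0.04 and -0.09. Of all genes tested, 7.24% were called higher and 6.98% lower at 6 h, and 13.7% and 14.6% at 12 h. After quantile normalization 1 of the enzymes was called higher and 3 lower at 6 h. Glrx, a glutaredoxin, fell by 0.35 at 6 h and 0.62 at 12 h (SE 0.08; limma adjusted p = 0.00534 and 9.42e-06), and Txnrd2, the mitochondrial counterpart of Txnrd1, fell by 0.62 at 12 h (SE 0.13, adjusted p = 0.00124; 0.122 with the mean of its probe sets). Catalase (Cat) fell by 0.31 at 6 h (SE 0.09, limma adjusted p = 0.0255), a call lost without DMSO replicate 1 (0.0846), DMSO replicate 2 (0.081), 6 h replicate 1 (0.0646) or 6 h replicate 2 (0.135). At 12 h Cat was lower by 0.35 (limma adjusted p = 0.00712), a call that no alternative setting ended. A second Cat probe set differed by -0.14 at 6 h and -0.25 at 12 h (SE 0.06). Sesn3 fell by 0.42 at 6 h and 0.43 at 12 h (limma adjusted p = 0.00269 and 0.000838), but a second probe set differed by 0.30 and 0.26, and the calls were lost with the mean of both (0.706 and 0.476).

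Of 12 tested of 13 autophagy partners of p62, none was called at 3 h (2 higher and 0 lower at an unadjusted p under 0.05), 2 higher and 0 lower at 6 h (3 and 2 unadjusted), and 3 higher and 2 lower at 12 h, with medians of 0.06, 0.09 and 0.12. With the mean of a gene's probe sets, 1 was called higher and 0 lower at 6 h, and likewise at 12 h. The medians were then 0.01 at 6 h and 0.03 at 12 h. The shares of all genes called higher and lower were 7.24% and 6.98% at 6 h and 13.7% and 14.6% at 12 h. Gabarapl1, an ATG8 protein to which p62 can bind, rose by 0.47 at 6 h (SE 0.09, limma adjusted p = 0.00159) and by 0.87 at 12 h, to 1.83 times DMSO (adjusted p = 1.11e-06), and its second probe set by 0.50 and 0.93. The calls of Map1lc3b (0.25 at 12 h, limma adjusted p = 0.0177) and Tollip (0.35 at 6 h and 0.32 at 12 h, adjusted p = 0.00511 and 0.00357) rest on 1 probe set each. At 12 h the other Map1lc3b probe sets differed by -0.25 (SE 0.06) and -0.15 (SE 0.10), and its call was also lost without DMSO replicate 3 (0.0926) or 12 h replicate 2 (0.0756). Another Tollip probe set differed by -0.30 at 6 h and -0.55 at 12 h (SE 0.51).

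**Figure D4:**
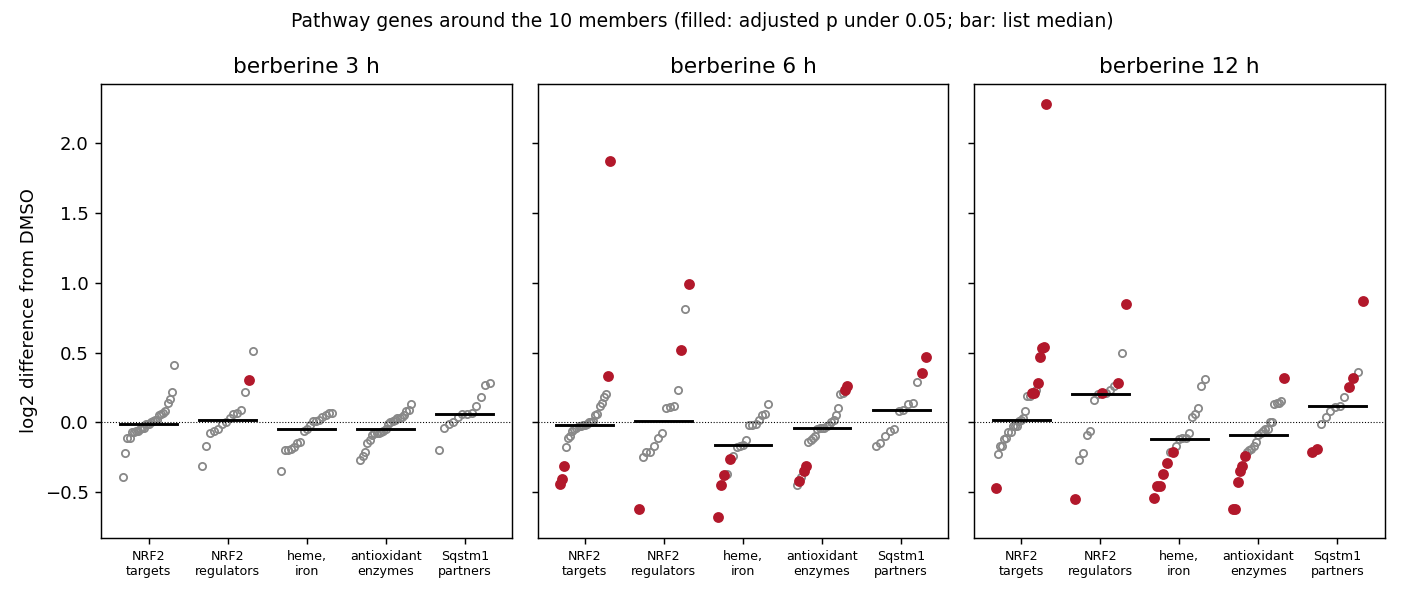
The log2 difference from DMSO (vertical axis) of every tested gene of the 5 lists is plotted at 3 h, 6 h and 12 h, with filled points for a limma adjusted p under 0.05, open points for the rest, and a bar at the list median. At 12 h, 7 of 25 other NRF2 targets were called higher, led by Slc7a11, and 6 of 17 heme and iron genes were called lower. Of all genes tested, 13.7% were called higher and 14.6% lower at that time.

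The cells had high signals for most adipocyte markers. The summed linear signal of the 8 tested of 10 markers was 140590.5 to 179589.7 on DMSO and 159084.9 to 173357.8 at 12 h. Of these markers 1 was called lower at 3 h (Cidec -0.29), and 4 higher (Adipoq, Fabp4, Lpl and Pparg) and 3 lower (Cebpa, Lipe and Cidec) at 6 h, or 0 and 2 after quantile normalization. At 12 h, 4 of them were called lower (Cidec -1.44, Lipe -0.88, Cebpa -0.59 and Slc2a4 -0.31) and 1 higher (Lpl 0.32), or 4 and 0 after quantile normalization. Of 10 macrophage markers, 5 passed the filter, with summed signals of 971.7 to 1093.2 on DMSO and 1048.5 to 1314.1 at 12 h. Adgre1, Ptprc, Itgam, Cd163 and Mrc1 did not pass it, and Cd14 was called higher at 6 h and 12 h (0.34 and 0.38, limma adjusted p = 0.0292 and 0.00761). Of 6 endothelial markers 1 passed. Of 10 fibroblast and preadipocyte markers 8 were tested, with summed signals of 81040.6 to 96446.5 on DMSO and 93341.7 to 100396.7 at 12 h. At 6 h, 2 of them were called higher (Col3a1 0.23 and Vim 0.25) and 2 lower (Pdgfra -0.46 and Col1a1 -0.28), and at 12 h 1 higher (Vim 0.27) and 2 lower (Pdgfra -0.28 and Col1a1 -0.35). Beside these marker counts, 7.24% of all genes were called higher and 6.98% lower at 6 h. At 12 h the shares of all genes were 13.7% and 14.6%, and at 3 h 0.816% were called lower. The difference between the 3′ and 5′ Gapdh probe sets, a measure of RNA integrity, was -0.15 to 0.03 on DMSO and -0.16 to -0.04 at 12 h, and that of the actin probe sets was 1.56 to 1.72 on DMSO and 1.51 to 1.58 at 12 h. The part of these markers and of RNA integrity in the differences of the 10 genes was not tested, and fewer cells of a type cannot be told apart from less RNA per cell in these bulk samples.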

How the data were processed

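RNA of 12 samples was hybridised to single-colour oligonucleotide arrays. The deposited values are log2 signals of 45101 probe sets, made by the authors with MAS5 per the submitters' processing notes (version: not given in the sources used). Because MAS5 applies 1 scaling factor per array, brightness-dependent bias remains in the values and dim signals vary widely. Scanner files were not used here, and the number of arrays limits the precision.

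Detection was set at 5.77, the median log2 value of the non-control probe sets. Probe sets reaching it on at least 3 of 12 arrays numbered 25053. Names came from the platform annotation and RefSeq's gene table: 34945 probe sets had 1 symbol, 932 several and 9160 none. The brightest of a gene's remaining probe sets stood for the gene, giving 12136 genes. List genes that were not named on the array are not analysed here.

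Group means over all 12 arrays were compared with limma 3.58.1 (R 4.3.3; lmFit and eBayes with an intensity trend, 8 residual degrees of freedom, two-sided tests), and p-values were adjusted by the Benjamini-Hochberg method over all genes tested. The fit was tested on simulated data. Fold changes are ratios of geometric means. For a bound, values under the detection threshold were first raised to it. Plots used Python 3.11.15 and matplotlib 3.10.9.

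The 10 genes and the lists were chosen with earlier results of these data known. Named were all 10 genes, up to 3 called genes per list and time with the largest difference and both means at or above the threshold, and the 5 genes most like Hmox1. Slc7a11, Gclc, Gsr, Txn1, Blvrb and Hmox2 were also named, outside this rule. RIKEN, predicted and clone-type symbols were left out of the ranking by likeness to Hmox1. Alternatives were other scalings, filters, probe set rules and fits, a replicate block, and leaving out each array.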

Additional observations from a re-analysis of the deposited data

Results flagged for a closer look

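Some genes differed between berberine times in the direct limma comparison of 12 h with 3 h. Of Slc7a11 and the genes of the 5 pathway lists named by the rule, those higher at 12 h than at 3 h were Slc7a11 (1.86, limma adjusted p = 0.000178), Abcc4 (0.86, limma adjusted p = 5.62e-05), Gabarapl1 (0.60, adjusted p = 0.00012), Nfe2l1 (0.55, adjusted p = 3.62e-05), Gclm (0.46, adjusted p = 0.000165), Slc40a1 (0.41, adjusted p = 0.011) and Pgam5 (0.28, adjusted p = 0.00679). Blvrb, named outside the rule, was also higher (0.23, limma adjusted p = 0.0206), and the stability of its call is not given. Those lower at 12 h than at 3 h were Uros (-0.47, limma adjusted p = 0.000634), Aox1 (-0.41, adjusted p = 0.0108), Txnrd2 (-0.39, adjusted p = 0.0438), Glrx (-0.35, adjusted p = 0.00365), Sesn3 (-0.35, adjusted p = 0.00694), Tfrc (-0.33, adjusted p = 0.00679), Alas1 (-0.26, adjusted p = 0.0153) and Syvn1 (-0.24, adjusted p = 0.0422). Calls lost when 1 array was left out were those of Alas1 (12 h replicate 1 or 2 or 3 h replicate 1), Slc40a1 (12 h replicate 3 or 3 h replicate 3), Syvn1 (DMSO replicate 1, 12 h replicate 1 or 2 or any 3 h array) and Txnrd2 (DMSO replicate 1 or 2, any 12 h array, 3 h replicate 1 or 3, or 6 h replicate 1). The mean of a gene's probe sets ended the calls of Gclm (limma adjusted p = 0.0566), Tfrc (0.508), Uros (0.688), Sesn3 (0.761), Alas1 (0.328), Syvn1 (0.237) and Txnrd2 (0.525). The calls of Syvn1 and Txnrd2 were also lost with a replicate block, with no filter on low values, tested per probe set and with no intensity trend.

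In 3 of the genes named, every array of one time lay on one side of DMSO and every array of another time on the other side. Maff was at -0.40 at 3 h and -0.44 at 6 h, against 0.42 at 12 h. Srxn1 was at -0.23 at 6 h and 0.42 at 12 h, and Abcc4 at -0.44 at 6 h and 0.47 at 12 h. Over all 12136 genes tested, 77 (0.634%) had arrays of 3 h and 12 h on opposite sides, and 38 (0.313%) had those of 6 h and 12 h. These reversals of side relative to DMSO were not tested as such, and the times share the same DMSO arrays.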

How the results depend on the processing

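The differences from DMSO, those between berberine times for the 10 genes and those between 12 h and 3 h for named list genes were recomputed under 10 alternative settings and without each of the 12 arrays; the alternatives between berberine times were chosen after seeing the data. Of 1320 alternative values of the 10 genes, 1243 kept their direction and call, 62 lost the call, 9 gained one, 0 called values changed sign and 6 others moved past the spread. Of 1936 alternative values of named list genes, 1813 kept both, 96 lost the call, 19 gained one, 3 called values changed sign and 5 others moved. The changes of sign were Fth1 at 12 h with quantile normalization (-0.02, against 0.21), and, with the mean of a gene's probe sets, Map1lc3b (-0.05, against 0.25) and Tollip (-0.12, against 0.32) at 12 h; the cause was not tested.

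Of the 10 genes, 0 were called at 3 h (0 to 1 without 1 array), 4 at 6 h (3 to 5) and 7 at 12 h (6 to 7). With the mean of a gene's probe sets, 5 were called at 12 h. Between 3 h and 6 h, 3 were called (1 with the mean of a gene's probe sets and 1 with no intensity trend, 1 to 4 without 1 array), between 6 h and 12 h 6 (2 with the mean of a gene's probe sets, 4 to 6 without 1 array) and between 3 h and 12 h 7 (4 with the mean of a gene's probe sets, 5 to 8 without 1 array). Of the other NRF2 targets, 0 were called at 3 h (1 with a replicate block, 0 to 1 without 1 array), 5 at 6 h (2 with no intensity trend, 2 to 5 without 1 array) and 8 at 12 h (4 to 9 without 1 array). Of the genes of the 5 lists, 1 was called at 3 h: 2 with a replicate block, with a pseudocount of 50 or with the stricter filter, and 0 with the mean of a gene's probe sets, tested per probe set, with no intensity trend or with only the 2 groups compared (0 to 2 without 1 array). The lists gave 19 calls at 6 h (13 to 20 without 1 array) and 30 at 12 h (24 to 32). With the mean of a gene's probe sets they gave 22 at 12 h.

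Over all genes tested, the 231 calls at 3 h became 93 with no intensity trend, 114 with the mean of a gene's probe sets and 117 without DMSO replicate 1. The 1726 calls at 6 h became 1099 with the mean of a gene's probe sets and 1116 without DMSO replicate 1. The arrays share replicate numbers between groups, but same-numbered arrays did not deviate together (r of -0.04 to 0.03 over 18 pairs), so the numbers were not taken to pair them. With the replicate as a block, 4 of the 10 genes were called at 6 h and 7 at 12 h, and 3398 of all genes at 12 h, against 3426.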
